A study of Homo sapiens with 6 samples.

Results

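The genes described here are 37 genes of the ATF4 pathway: ATF4 itself, its partners and feedback regulators, and the amino acid genes it is known to drive. They are listed by name, by a rule that uses no measured value, out of 33367 genes to which the transcripts of the libraries could be assigned. The list was nevertheless chosen with earlier results of these data known. By role they comprise 14 stress regulators, 7 amino acid transporters, 6 serine and one-carbon enzymes, 7 other enzymes of amino acid metabolism and 3 further genes (XPOT, STC2 and VLDLR). All 37 passed the read filter, in a table of 14075 tested genes. VLDLR did so only with the reads of clone c2, where it was highest.

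The cells were K562, an established erythroleukaemia line, grown as clones with a short hairpin RNA (shRNA) whose expression is switched on by doxycycline. Clones c1 and c2 carried a hairpin against CDAN1, the gene mutated in an inherited dyserythropoietic anaemia, and the NT clone carried a non-targeting hairpin. Every clone was kept in 2 µg/ml puromycin and gave 1 induced library, from cells given 1 µg/ml doxycycline and taken at day 4, and 1 uninduced library without doxycycline. Knockdown was thus sampled by 2 libraries, the induced ones of c1 and c2, and there were 4 controls: the uninduced libraries of c1 and c2 and the induced and uninduced libraries of NT. Each line is 1 clone, so clone and hairpin cannot be told apart, and each pair holds 1 culture per state, so any spread measured here is that between these libraries.

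ATF4 is the central transcription factor of the integrated stress response. Stress kinases phosphorylate the translation factor eIF2, which lowers protein synthesis as a whole while allowing ATF4 mRNA to be translated, so ATF4 protein can change with no change in its mRNA. With C/EBP family partners, ATF4 then drives genes for amino acid uptake, for serine, asparagine and one-carbon synthesis, and for its own feedback; in red cell precursors the pathway is known for the response to haem shortage through the kinase HRI.

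ATF4 and C/EBP proteins bind a composite site, the C/EBP-ATF response element, whose core was searched as TGATGNAA on both strands (TTNCATCA when read from the other strand). RefSeq windows on GRCh38.p14, running from 250 bases before to 50 bases after each gene's start, were at hand for 29 of the 37 members. The core lay in 5 of these 29 windows (17.2%), against 1003 of 27305 windows of all genes (3.67%). These 5 sequences are shown because they hold the element within the window around the RefSeq start. Positions are counted from that start, which for 4 of the 5 is not the outermost start of the gene in GENCODE 29: it lies 73 bases inside it for ATF3, 134 for ASNS, 509 for CHAC1 and 25597 for SLC3A2. Each is a stretch of 30 bases written in the direction in which the match reads, with the match in capitals.
CHAC1, chr15:40953251-40953280, strand opposite to the gene, 209 to 202 bases before the start: cctggcaggagTGATGCAAcggcaggggag
ATF3, chr1:212565205-212565234, strand of the gene, 191 to 184 bases before the start: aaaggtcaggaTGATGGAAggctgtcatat
ASNS, chr7:97872458-97872487, strand of the gene, 68 to 61 bases before the start: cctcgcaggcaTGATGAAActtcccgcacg
SLC7A1, chr13:29595663-29595692, strand of the gene, bases 7 to 14 after the start: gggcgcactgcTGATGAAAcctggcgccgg
SLC3A2, chr11:62881719-62881748, strand opposite to the gene, bases 37 to 44 after the start: ggagcTGATGTAAggagtcctgcacattac
A match is a description of the letters and not evidence of binding in these cells. CHAC1, ATF3 and SLC7A1 return below among the members called between clones, where 15.1% to 20.7% of all genes were called without a block. ASNS and SLC3A2 do not, while members whose windows held no match, such as ATF4, DDIT4, CBS and PHGDH, do. Any link between a match and these calls was not tested.

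Libraries held 28318555 to 32352246 estimated reads. In counts scaled to the library total (CPM), induced c1 held 17.0 CPM of CDAN1 and uninduced c1 37.0, induced c2 held 29.8 and uninduced c2 55.4, and induced NT held 70.2 and uninduced NT 62.5. All 14 markers of K562 cells were detected, and their summed level was 15580 CPM in induced c1, 12720 in induced c2 and 15947 in induced NT, against 15143 CPM in uninduced c1, 11481 in uninduced c2 and 15136 in uninduced NT. Markers of T cells, B cells and monocytes lay near 0, with MS4A1 at 0 in all 6 libraries, apart from CD3D at 7.37 to 23.5 CPM, while the epithelial genes KRT8, KRT18 and EPCAM together reached 745 to 1107 CPM. The 3 endothelial markers summed to 16.3 CPM in induced c1, 34.1 in induced c2 and 19.3 in induced NT, against 23.9 CPM in uninduced c1, 44.3 in uninduced c2 and 23.3 in uninduced NT, nearly all from PECAM1. The 3 fibroblast markers summed to 4.91 to 15.9 CPM, highest in both c2 libraries. Mitochondrially encoded transcripts took 5.10% of the gene reads in induced c1, 4.90% in induced c2 and 4.31% in induced NT, against 6.11% in uninduced c1, 4.64% in uninduced c2 and 5.58% in uninduced NT. The part of these markers and shares in the results below was not tested.

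Per unit of transcript length (the deposited TPM), ATF4 was the most abundant member, with a mean of 371 TPM over the 6 libraries. DDIT4, an inhibitor of the growth kinase mTORC1, followed at 317 TPM and the glutamine transporter SLC1A5 at 273 TPM. CBS, the first enzyme from homocysteine towards cysteine, averaged 247 TPM and the mitochondrial serine hydroxymethyltransferase SHMT2 207 TPM. At the other end stood the cystine transporter SLC7A11 at 5.06 TPM, the stress regulator NUPR1 at 2.40 TPM and the lipoprotein receptor VLDLR at 0.206 TPM. The first 2 members of this order did not differ beyond their spread: ATF4 averaged 379 ± 60.4 TPM and DDIT4 346 ± 154 TPM over the 4 controls (SD). The 37 members together made up 3304 TPM in induced c1 against 2742 in uninduced c1, 3255 in induced c2 against 3445 in uninduced c2, and 3523 in induced NT against 4050 in uninduced NT. The sum was thus higher after induction in c1 and lower after induction in c2 and NT.

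The same split ran through the single genes. In c1, 34 of the 37 members had a higher level in the induced than in the uninduced library; in c2 this held for 12 members and in NT for 5. On the TPM scale 33 members did so for c1, 11 for c2 and 8 for NT, with another sign for CTH in c1, for JDP2, SLC1A5, SHMT2, PCK2 and STC2 in c2 and for SHMT2, XPOT and STC2 in NT. Of all tested genes, 47.2% were higher in induced c1, 49.7% in induced c2 and 49.1% in induced NT. The median response, as log2 CPM of the induced minus the uninduced library, was 0.26 for the members in c1, −0.07 in c2 and −0.27 in NT. Over all tested genes it was −0.014 for c1, −0.00057 for c2 and −0.0022 for NT. These are pairs of single libraries and carry no test. In bulk RNA, a change in the kinds of cells and a change in RNA per cell cannot be told apart.

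**Figure D1:**
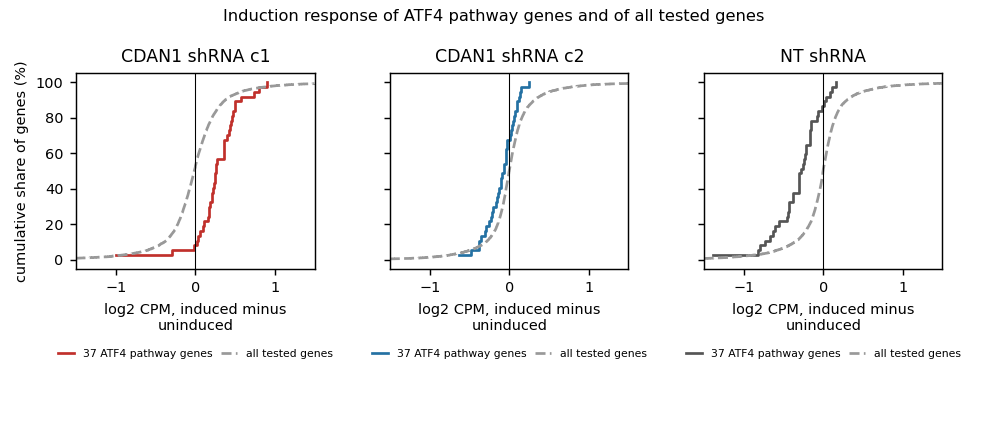
Cumulative share of genes (%) against the induction response (log2 CPM of the induced minus the uninduced library, 1 library each), for the 37 ATF4 pathway genes (solid) and all 14075 tested genes (dashed); a few genes outside ±1.5 are not drawn. The curve of the members lies to the right of that of all genes in c1 (median 0.26), a little to its left in c2 (−0.07) and further to its left in NT (−0.27).

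A difference of at least 1.25-fold was reached upward by 16 members and downward by 1 in c1, where 12.6% of all tested genes were that much higher and 13% that much lower. In c2 no member was that much higher and 5 were lower, beside 9.87% and 9.04% of all genes. In NT no member was higher and 14 were lower, beside 9.24% and 11.1%. The NT clone, with no hairpin against CDAN1, gave the largest number of lower members in its induced library.

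**Figure D2:**
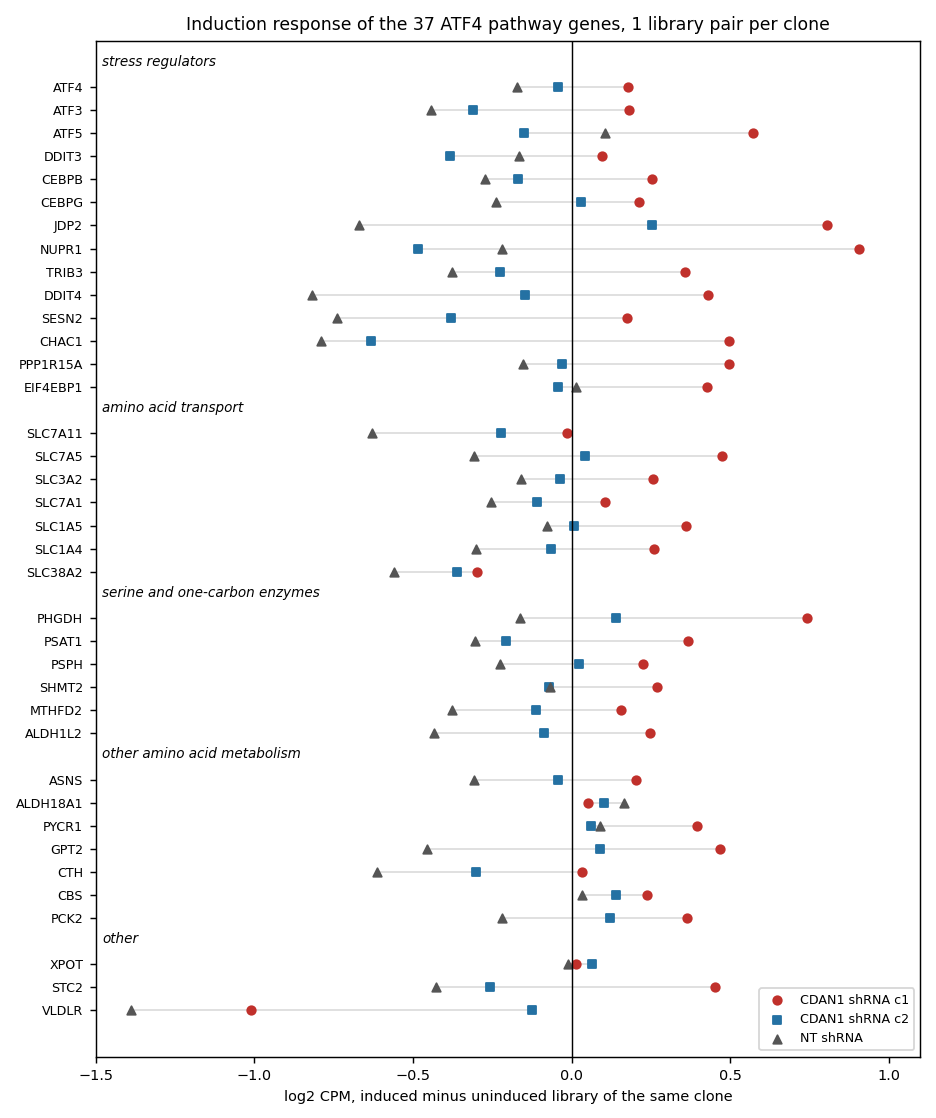
Induction response of each of the 37 members (log2 CPM, induced minus uninduced library, 1 library each) in c1 (circles), c2 (squares) and NT (triangles), by role. For most members c1 lies to the right of 0 and NT to the left, with c2 between them; SLC38A2, SLC7A11 and VLDLR lie to the left of 0 in all 3 clones.

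Among the 14 stress regulators, all were higher in the induced library of c1, 2 in that of c2 and 2 in that of NT, with a median response of 0.39 for c1, −0.16 for c2 and −0.26 for NT. ATF4 itself (ENSG00000128272, chromosome 22, 39519695 to 39522685 on GRCh38) stood at 365 CPM in the induced and 323 in the uninduced c1 library, at 398 in induced c2 against 410.2 in uninduced c2, and at 431 in induced NT against 486 in uninduced NT. The 2 c1 libraries were the lowest of the 6 and the 2 NT libraries the highest, and the clones lay closer to each other in the induced state. Its mRNA response, 0.18 in c1, −0.04 in c2 and −0.17 in NT, was among the smaller ones of the group.

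DDIT4 showed the widest separation of the abundant members. It stood at 308 CPM in the induced and 228 in the uninduced c1 library, at 323 in induced c2 against 358 in uninduced c2, and at 398 in induced NT against 702 in uninduced NT. As a share of the uninduced level this was 135% in c1 (95% interval for counting error only, 131 to 139). It was 90.3% in c2, with an interval of 87.8 to 92.8, and 56.7% in NT, with one of 55.4 to 58.1. SESN2, a leucine sensor that also restrains mTORC1, had 79.8 CPM in the induced and 70.7 in the uninduced c1 library, 78.1 in induced c2 against 102 in uninduced c2, and 88.9 in induced NT against 148 in uninduced NT. For both genes the uninduced NT library was the high one, and the 3 induced libraries lay closer to each other than the uninduced ones did.

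CHAC1 (ENSG00000128965, chromosome 15, 40952962 to 40956519 on GRCh38), which degrades glutathione, had 6.81 CPM in the induced and 4.80 in the uninduced c1 library, 16.2 in induced c2 against 25.2 in uninduced c2, and 22.7 in induced NT against 39.3 in uninduced NT. Both c1 libraries lay far below the other 4, whichever the doxycycline state. ATF3, a repressor that ATF4 induces early, was also lowest in both c1 libraries, at 17.5 CPM in the induced and 15.4 in the uninduced one. Its level was 26.8 in induced c2 against 33.2 in uninduced c2, and 33.5 in induced NT against 45.6 in uninduced NT. TRIB3, a pseudokinase that feeds back on ATF4, had a log2 response of 0.36 in c1, of −0.23 in c2 and of −0.38 in NT, and DDIT3, the pro-apoptotic factor also called CHOP, had 0.10 in c1, −0.38 in c2 and −0.17 in NT.

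The largest responses of regulators in c1 came from NUPR1 and JDP2, the least abundant of them on the TPM scale. NUPR1 gave 90 reads in induced c1 against 44 in uninduced c1, 26 in induced c2 against 36 in uninduced c2, and 17 in induced NT against 20 in uninduced NT, so the c1 ratio of 192% has a counting interval of 132 to 281. JDP2, an AP-1 family repressor, had a log2 response of 0.81 in c1, of 0.25 in c2 and of −0.67 in NT at 87 to 226 reads a library. ATF5, a relative of ATF4, had 152 CPM in the induced and 102 in the uninduced c1 library, 89.2 in induced c2 against 98.9 in uninduced c2, and 177 in induced NT against 164 in uninduced NT. ATF5 and EIF4EBP1, the translation repressor 4E-BP1, were the regulators whose level was not lower in induced NT, with responses of 0.11 and 0.014. PPP1R15A, the eIF2 phosphatase subunit GADD34, had a log2 response of 0.50 in c1, of −0.03 in c2 and of −0.15 in NT. Of the C/EBP partners, CEBPB had a response of 0.25 in c1, of −0.17 in c2 and of −0.27 in NT. CEBPG had 0.21 in c1, 0.029 in c2 and −0.24 in NT.

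Of the 7 amino acid transporters, 5 were higher in induced c1, 2 in induced c2 and none in induced NT, with median responses of 0.26 in c1, of −0.06 in c2 and of −0.30 in NT. SLC7A5, the light chain of the leucine exchanger LAT1, had 456 CPM in the induced and 328 in the uninduced c1 library, 409 in induced c2 against 397 in uninduced c2, and 297 in induced NT against 368 in uninduced NT. All 4 libraries of c2 and NT and the uninduced c1 library lay below induced c1. Its heavy chain SLC3A2 had responses of 0.26 in c1, of −0.04 in c2 and of −0.16 in NT, and SLC1A5, which brings in glutamine, 0.36 in c1, 0.0066 in c2 and −0.08 in NT. SLC1A4, a serine and alanine carrier, had 0.26 in c1, −0.06 in c2 and −0.30 in NT, and the arginine and lysine carrier SLC7A1 had 0.11 in c1, −0.11 in c2 and −0.25 in NT.

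SLC38A2 (ENSG00000134294, chromosome 12, 46358189 to 46372867 on GRCh38), the sodium-coupled carrier SNAT2 of small neutral amino acids, was the abundant exception. It stood at 343 CPM in the induced and 422 in the uninduced c1 library, at 516 in induced c2 against 662 in uninduced c2, and at 481 in induced NT against 709.5 in uninduced NT. The induced library was thus the lower one in all 3 clones, with 81.2% of what uninduced c1 held (79.1 to 83.4 for counting error), 77.9% of the level of uninduced c2 (76.2 to 79.5) and 67.8% of that of uninduced NT (66.3 to 69.3). SLC7A11, which exchanges cystine for glutamate, was also not higher in any induced library, with responses of −0.016 in c1, of −0.22 in c2 and of −0.63 in NT.

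The 6 serine and one-carbon enzymes were all higher in induced c1, 2 were higher in induced c2 and none in induced NT, with medians of 0.26 in c1, of −0.08 in c2 and of −0.27 in NT. PHGDH (ENSG00000092621, chromosome 1, 119648411 to 119744226 on GRCh38), the first enzyme of serine synthesis, had 176 CPM in the induced and 105 in the uninduced c1 library, 87.7 in induced c2 against 79.5 in uninduced c2, and 150 in induced NT against 168 in uninduced NT. Both c2 libraries were the lowest for PHGDH and induced c1 was the highest. The next enzyme PSAT1 had a log2 response of 0.37 in c1, of −0.21 in c2 and of −0.31 in NT, and PSPH, which completes serine, had 0.23 for c1, 0.022 for c2 and −0.23 for NT. Within the mitochondrial folate arm, SHMT2 had 0.27 in c1, −0.07 in c2 and −0.07 in NT, MTHFD2 0.16 in c1, −0.11 in c2 and −0.38 in NT, and ALDH1L2 0.25 in c1, −0.09 in c2 and −0.43 in NT.

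The other enzymes of amino acid metabolism were all 7 higher in induced c1, 5 of them in induced c2 and 3 in induced NT, with medians of 0.24 in c1, of 0.09 in c2 and of −0.22 in NT. ASNS, asparagine synthetase, had 227 CPM in the induced and 197 in the uninduced c1 library, 226.5 in induced c2 against 233 in uninduced c2, and 205 in induced NT against 254 in uninduced NT. The alanine transaminase GPT2 spanned 0.47 in c1, 0.09 in c2 and −0.46 in NT, and PCK2, the mitochondrial form of PEP carboxykinase, 0.37 in c1, 0.12 in c2 and −0.22 in NT. The proline synthesis enzymes kept the same sign in every clone, with 0.053 in c1, 0.10 in c2 and 0.17 in NT for ALDH18A1 and 0.40 in c1, 0.063 in c2 and 0.089 in NT for PYCR1. CBS did so too, with 0.24 in c1, 0.14 in c2 and 0.034 in NT. The next enzyme towards cysteine, CTH, had 0.034 in c1, −0.30 in c2 and −0.61 in NT.

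Of the last 3 members, XPOT, the exporter of tRNA from the nucleus, hardly differed between any of the libraries, at 368 to 392 CPM. STC2, a secreted glycoprotein, had responses of 0.45 in c1, of −0.26 in c2 and of −0.43 in NT. Its TPM values did not keep those signs, with 8.17 in induced c2 against 7.68 in uninduced c2 and 8.50 in induced NT against 8.11 in uninduced NT. VLDLR gave 0 reads in induced c1 against 2 in uninduced c1, 33 in induced c2 against 35 in uninduced c2, and 5 in induced NT against 16 in uninduced NT, too few for a ratio to be read in c1.

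Over groups of libraries these differences were tested with edgeR's quasi-likelihood test, adjusted over all 14075 genes by Benjamini-Hochberg (threshold 0.05). The comparison that the series names puts the induced libraries of c1 and c2 against the 4 controls, and in it no member was called. No gene of the whole table was called either (0%; 322 genes and 1 member at unadjusted p under 0.05), and CDAN1 itself had an adjusted p of 1. With the clone as a block, which pairs the libraries of a clone, 6 genes were called (0.0426%), with CDAN1 among them at −1.01 ± 0.098 (log2 fold change ± SE, adjusted p = 0.0275) and again no member. The blocked estimate comes from the pairs of c1 and c2 alone, and the NT pair enters only the spread. It is thus the same estimate as in the blocked contrast of induced against uninduced CDAN1 shRNA clones below, where CDAN1 had −1.01 ± 0.094. The median of the members was 0.029 without and 0.084 with the block, beside −0.00074 and −0.0051 over all genes. Its sign was not stable in the unblocked fit: it was −0.13 without induced c1, −0.08 without uninduced c1, −0.03 without uninduced c2 and −0.04 with a length offset, and 0.072 without uninduced NT and 0.069 without induced c2.

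The 2 members of each role with the smallest p in that comparison, each with an edgeR adjusted p of 1, show how wide the errors were. Among stress regulators they were NUPR1 at 0.87 ± 0.59 and SESN2 at −0.38 ± 0.28. Among transporters they were SLC7A5 at 0.31 ± 0.13, the single member under the unadjusted 0.05, and SLC38A2 at −0.41 ± 0.26. The enzymes were MTHFD2 at −0.08 ± 0.15, ALDH1L2 at 0.10 ± 0.23, CTH at −0.45 ± 0.27 and ALDH18A1 at 0.15 ± 0.11. The remaining group gave XPOT at 0.06 ± 0.06 and STC2 at −0.09 ± 0.28.

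Induced against uninduced CDAN1 shRNA clones gave no call without the block, for members or for any gene (0%; 207 genes at unadjusted p under 0.05). With the block, 141 genes were called (1%), of which 35 were higher (0.249%) and 106 lower (0.753%). SLC38A2 was the only member among them in this fit, and it fell by 0.33 ± 0.06 on the log2 scale (adjusted p = 0.0347), 1 call in 37 members. DESeq2 and voom with the block called it too, at adjusted p = 0.00899 and 0.0431. These blocked fits use the same libraries and design, with 1 residual degree of freedom, so the tools are not separate support. The NT pair, which the contrast does not enter, had −0.56 for the same gene. The unblocked estimate of −0.34 ± 0.31 was not called, and leaving out single libraries moved it between −0.66 and 0.025, the last without uninduced c2. The other members with the smallest unblocked p by role all had an adjusted p of 1. They were PPP1R15A at 0.22 ± 0.16, EIF4EBP1 at 0.20 ± 0.15, SLC7A5 at 0.25 ± 0.13, SLC1A5 at 0.19 ± 0.13, PHGDH at 0.51 ± 0.38, SHMT2 at 0.10 ± 0.11, PCK2 at 0.25 ± 0.11, GPT2 at 0.28 ± 0.16, XPOT at 0.04 ± 0.08 and VLDLR at −0.22 ± 2.02.

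The response of the CDAN1 shRNA clones minus that of NT sets the doxycycline response of the NT clone apart. No member was called, without the block (0% of genes; 79 genes at unadjusted p under 0.05) or with it, where 19 genes were called (0.135%). The median of the members was 0.39, beside −0.0013 over all genes. With the edgeR block, 16 members (43.2%) had an unadjusted p under 0.05, as did 693 of all genes (4.92%). Without the block 0 members did, beside 0.561% of genes. Blocked DESeq2 gave 3 members and 136 genes, and blocked voom 15 members and 654 genes. The smallest adjusted p of a member belonged to DDIT4, whose difference of 0.96 ± 0.19 had an edgeR adjusted p of 0.202 with the block. Beyond DDIT4, the members with the smallest unblocked p of their role, all at an adjusted p of 1, were CEBPG at 0.36 ± 0.17, SLC7A5 at 0.56 ± 0.23, SLC7A11 at 0.51 ± 0.22, MTHFD2 at 0.39 ± 0.26, PSAT1 at 0.41 ± 0.34, GPT2 at 0.74 ± 0.28, PCK2 at 0.47 ± 0.19, STC2 at 0.45 ± 0.62 and VLDLR at 1.45 ± 3.66. This contrast rests on a single NT pair, in which 32 of the 37 members had a negative response. With the block its fit had 1 residual degree of freedom.

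All 3 induced against all 3 uninduced libraries, whatever the hairpin, gave no call among genes or members without the block (0%; 217 genes at unadjusted p under 0.05) and 18 genes with it (0.128%), no member among them. SLC38A2 came nearest at −0.41 ± 0.06 (adjusted p = 0.064 with the edgeR block), and DESeq2 and voom with the block called it at adjusted p = 7.88e-08 and 0.0434. These blocked fits share libraries and design, with 2 residual degrees of freedom. The other members with the smallest unblocked p of their role, at an adjusted p of 1, were SLC7A11 at −0.32 ± 0.19, SESN2 at −0.38 ± 0.25, DDIT3 at −0.17 ± 0.15, MTHFD2 at −0.13 ± 0.14, PHGDH at 0.23 ± 0.34, CTH at −0.34 ± 0.27, PYCR1 at 0.19 ± 0.17, STC2 at −0.14 ± 0.26 and VLDLR at −0.54 ± 1.40.

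More members were called between clones than between doxycycline states, and the same held for all genes. Here the 2 libraries of a clone, induced and uninduced, serve as its replicates, so p-values measure the distance between 2 lines against the distance between their states. In c1 against NT, 9 members were called with edgeR, 2 higher and 7 lower, among 20.7% of all genes (9.87% higher and 10.8% lower). The medians were −0.24 for the members and −0.0010 for all genes; that of the members was −0.07 without uninduced c1, −0.10 without uninduced NT and −0.44 without induced c1. With the doxycycline state as a block, 12 members were called, beside 27.8% of all genes.

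Among the stress regulators CHAC1 was lower in c1 than in NT, at −2.41 ± 0.32 (log2 fold change ± SE, edgeR adjusted p = 0.00254), as was ATF3 at −1.27 ± 0.17 (0.00273). ATF4 was lower at −0.42 ± 0.08 (0.0116) and DDIT4 at −1.04 ± 0.24 (0.0227), while NUPR1 was higher by 1.70 ± 0.42 (0.0267). SESN2, at −0.61 ± 0.18, was called with the block alone (edgeR adjusted p = 0.0385). In the sulphur amino acid branch CBS fell by 0.62 ± 0.09 (0.00332) and CTH by 0.68 ± 0.20 (0.0451). Estimated reads of CBS may be shared with its near-identical copy CBSL, which held 455 reads in induced and 398 in uninduced c1, 445 in induced and 274 in uninduced c2, and 729 in induced and 654 in uninduced NT, against at least 7274 for CBS in each library.

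SLC7A1 was the transporter called, at −0.41 ± 0.09 (edgeR adjusted p = 0.0205). SLC38A2 was called with the block alone, at −0.62 ± 0.07 (adjusted p = 0.000866). The proline enzyme ALDH18A1 was higher in c1 by 0.29 ± 0.08 (0.0395). No serine or one-carbon enzyme was called, and those with the smallest p were MTHFD2 at −0.29 ± 0.12 (edgeR adjusted p = 0.132) and ALDH1L2 at 0.30 ± 0.15 (0.197). STC2, at −0.53 ± 0.19, had an edgeR adjusted p of 0.0911. VLDLR was called with the block alone, at −3.33 ± 0.97 (0.0388), from 2 reads in c1 against 21 in NT, a ratio of 8.65% (0.983 to 35.4).

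In c1 against NT, 6 fits each left out 1 library, and the numbers of members and of all genes called both moved with the library left out. In 4 of these 6 fits 1 of the compared clones has a single library, whose spread is assumed to be that of the others. ATF3, CHAC1 and CBS were called in all 6. That of ATF4 was lost without uninduced NT, those of DDIT4 and SLC7A1 without uninduced NT or uninduced c1, and that of NUPR1 without either NT library or induced c1. ALDH18A1 was lost in every such fit and CTH in all but that without induced NT. Under 8 other settings, CTH was not called by voom or with a length offset (adjusted p up to 0.0872) and ALDH18A1 not with a length offset (0.0617). NUPR1 and DDIT4 were not called by DESeq2 with the block, at adjusted p = 0.0515 and 0.0811.

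**Figure D3:**
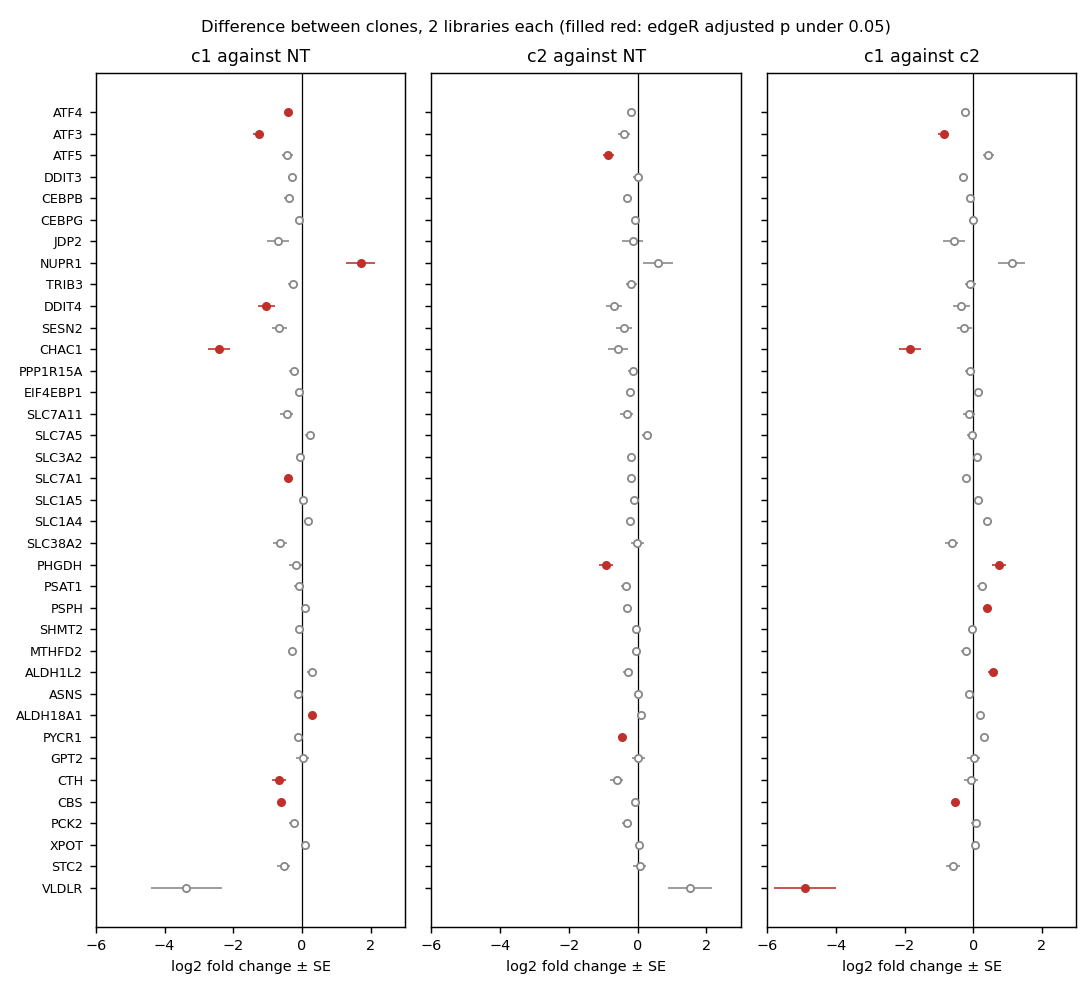
Difference between clones for each of the 37 members (log2 fold change ± SE, edgeR, 2 libraries per clone), for c1 against NT, c2 against NT and c1 against c2; filled red points have an adjusted p under 0.05. CHAC1 and ATF3 lie left of 0 in both contrasts of c1, PHGDH lies left of 0 in c2 against NT and right of 0 in c1 against c2, and most other members lie close to 0.

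In c2 against NT, 3 members were called, all lower, among 15.1% of all genes (8.87% higher and 6.21% lower). They were ATF5 at −0.86 ± 0.16 (edgeR adjusted p = 0.0123), PHGDH at −0.93 ± 0.21 (0.022) and the proline enzyme PYCR1 at −0.44 ± 0.12 (0.0411). The block added CTH at −0.60 ± 0.14 (0.0236), among 21.1% of all genes. Each of the 3 unblocked calls was lost without any one of the libraries of c2 or NT, and that of PYCR1 also with a length offset (adjusted p = 0.0839). The members named by smallest p but not called were DDIT4 at −0.69 ± 0.24 (edgeR adjusted p = 0.0983), PSPH at −0.32 ± 0.11 (0.1), SLC3A2 at −0.18 ± 0.09 (0.234), SLC7A1 at −0.18 ± 0.09 (0.235), VLDLR at 1.53 ± 0.64 (0.153) and XPOT at 0.03 ± 0.05 (0.777). The medians were −0.18 for the members (−0.05 without uninduced NT) and −0.00064 for all genes.

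The clones with a hairpin against the same gene also differed. In c1 against c2, 7 members were called, 3 higher and 4 lower, among 20.3% of all genes (8.1% higher and 12.2% lower). CHAC1 was lower in c1, at −1.83 ± 0.32 (edgeR adjusted p = 0.00661), as were ATF3 at −0.87 ± 0.17 (0.0107) and CBS at −0.54 ± 0.09 (0.00484). VLDLR was lower at −4.90 ± 0.91 (0.00831), with 2 reads in c1 against 68 in c2, a ratio of 2.98% (0.354 to 11.2). VLDLR passed the read filter only through its c2 reads, so this call is no separate support for a difference. Of the 6 serine and one-carbon enzymes 3 were higher in c1, PHGDH by 0.75 ± 0.21 (0.0381), ALDH1L2 by 0.57 ± 0.15 (0.0323) and PSPH by 0.39 ± 0.11 (edgeR adjusted p = 0.0457).

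With the doxycycline state as a block, 10 members were called in c1 against c2 among 26.8% of all genes. The block added the transporters SLC1A4 at 0.40 ± 0.12 (edgeR adjusted p = 0.0419) and SLC38A2 at −0.62 ± 0.07 (0.000691), and PYCR1 at 0.31 ± 0.08 (0.029). STC2, at −0.59 ± 0.19, was not called in the unblocked fit (edgeR adjusted p = 0.0677). CHAC1 and CBS were called in each of the 6 fits without 1 library, 4 of which again leave a clone with a single library. For VLDLR the estimates of those fits ran from −8.04, without uninduced c1 and so with 0 reads in c1, to −3.94 without induced c1, so its size is not fixed by these reads. ATF3 was lost without either uninduced CDAN1 shRNA library, ALDH1L2 without induced c1 or either c2 library, and PHGDH and PSPH in all but the fit without uninduced c1. The numbers of members and of all genes called both moved with the library left out. The unblocked median of the members was −0.06 with all libraries, beside 0.013 for all genes. It was 0.09 without uninduced c1, −0.22 without induced c1, −0.007 without uninduced c2 and −0.12 without induced c2. PHGDH was also not called by DESeq2, voom, DESeq2 with the block or with a length offset (adjusted p up to 0.122), PSPH not with RLE size factors or a length offset (up to 0.0745), and ALDH1L2 not with a length offset (0.0989).

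**Figure D4:**
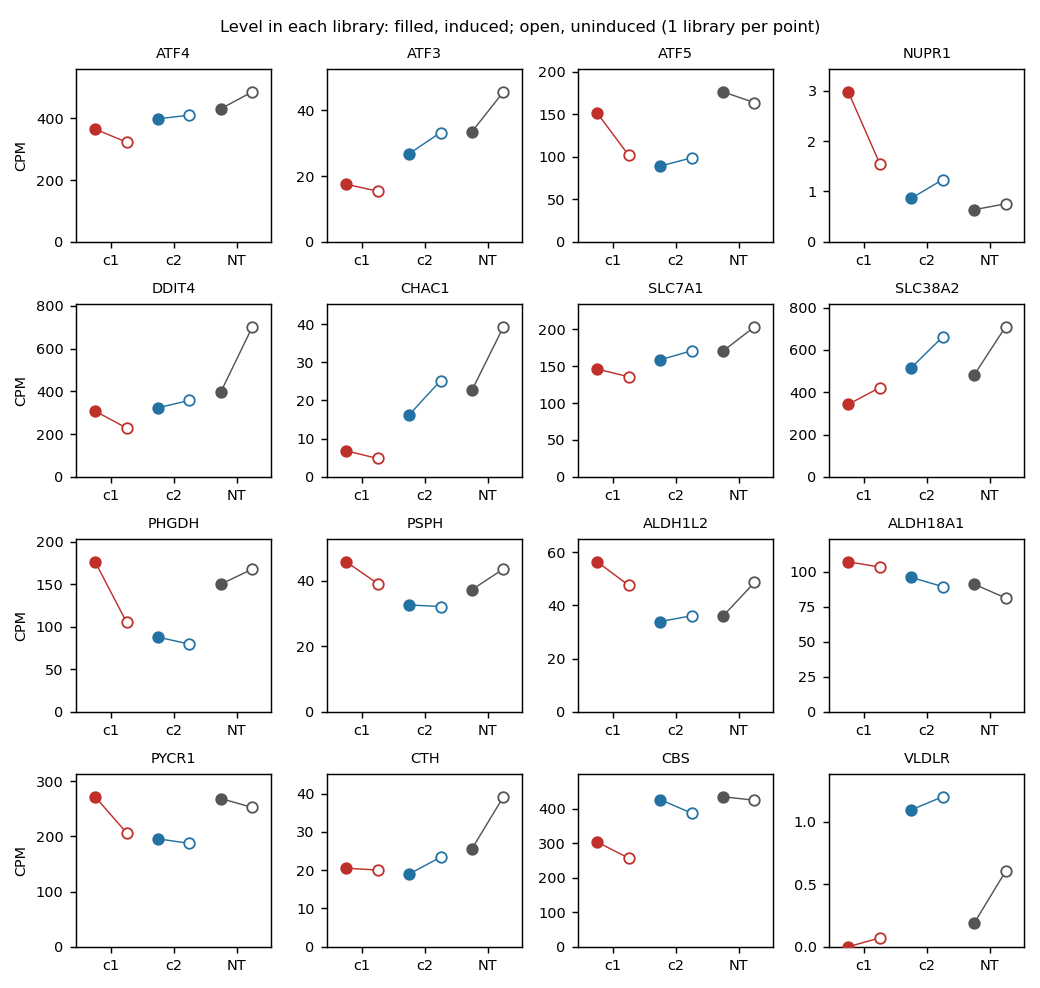
Level (CPM, linear axis from 0) of 16 members in each library, the 15 called between clones and SLC38A2, with filled points for induced and open points for uninduced libraries; each point is 1 library and lines join the pair of a clone. CHAC1 and ATF3 are lowest in both c1 libraries, PHGDH is lowest in both c2 libraries and highest in induced c1, and SLC38A2 is lower in the induced library of each clone.

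Single libraries stood at the ends of the order for many members. Uninduced c1 was the lowest of the 6 libraries for 21 of the 37 members (56.8%, beside 18.8% of all tested genes), and uninduced NT was the highest for 20 (54.1%, beside 15.1%). Induced c1 was the highest for 13 members (35.1%, beside 16.8%). The median range over the 3 clones was 0.36 on the log2 scale among the induced libraries and 0.58 among the uninduced ones, where that of all genes was 0.38 and 0.40. For the 14 stress regulators it was 0.30 and 0.69, and 11 of them (78.6%) had a narrower range when induced, beside 52.2% of all genes. The other roles did not all share this. The transporters had 0.316 and 0.343 (4 of 7 narrower) and the other enzymes of amino acid metabolism 0.429 and 0.444 (5 of 7). The serine and one-carbon enzymes were wider when induced, at 0.512 and 0.435 (3 of 6 narrower). The last 3 members had 0.249 and 0.974, with 1 narrower. With 1 library for each clone and state, the level of a clone and the error of its uninduced library cannot be told apart.

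Genes around the pathway that are not members had median responses nearer to 0, a difference that was not tested. The 22 genes of the eIF2 pathway (its kinases, subunits, exchange factor and phosphatase) had a median induction response of −0.05 in c1, of −0.02 in c2 and of 0.0042 in NT, and the 20 cytosolic tRNA synthetases, several of which ATF4 is known to induce, had 0.015 in c1, −0.04 in c2 and −0.04 in NT. Chaperones of the endoplasmic reticulum had 0.050 in c1, −0.03 in c2 and 0.055 in NT for 15 tested of 16. Folate enzymes outside the members had −0.02 in c1, −0.05 in c2 and 0.030 in NT for 17 tested of 20, and other amino acid transporters 0.09 in c1, −0.06 in c2 and −0.07 in NT for 16 tested of 20. No gene of these 5 lists was called, with or without the clone as a block, in any comparison of doxycycline states.

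Between clones, genes of these lists were called in both directions, at shares near those of all genes. Without the block, 20 of their 90 tested genes were called in c1 against NT (22.2%, beside 20.7% of all genes), 10 in c2 against NT (11.1%, beside 15.1%) and 17 in c1 against c2 (18.9%, beside 20.3%). With the doxycycline state as a block the numbers were 26 in c1 against NT (28.9%, beside 27.8%), 18 in c2 against NT (20%, beside 21.1%) and 26 in c1 against c2 (28.9%, beside 26.8%). The counts by list that follow are those without the block. In c1 against NT, 2 of the 22 eIF2 pathway genes were higher and 3 lower, 1 of the 20 synthetases was higher and 5 lower, 1 of the 15 chaperone genes was lower, 1 folate enzyme was higher and 1 lower, and 2 other transporters were higher and 4 lower. The valyl-tRNA synthetase VARS had 292 CPM in induced and 225 in uninduced c1, against 445 in induced and 406 in uninduced NT, and was lower in c1, at −0.72 ± 0.11 (edgeR adjusted p = 0.00521). With the block the eIF2 pathway had 4 higher and 3 lower and the chaperones 3 higher and 2 lower. In c2 against NT, no eIF2 pathway or chaperone gene was called, though GCN1, HYOU1 and SDF2L1 were called lower with the block, 4 synthetases were lower (5 lower and 2 higher with the block), 2 folate enzymes were higher and 1 lower, and 3 transporters were lower. Alanyl-tRNA synthetase AARS was the lowest of these synthetases relative to NT, with 342 CPM in induced and 352 in uninduced c2 against 551 in induced and 582 in uninduced NT, a difference of −0.71 ± 0.06 (0.000291). In c1 against c2, the counts of genes higher and lower were 3 and 2 for the eIF2 pathway, 3 and 2 for the synthetases, 0 and 1 for the chaperones, 0 and 2 for the folate enzymes and 3 and 1 for the transporters.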

How the data were processed

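Sequencing libraries were made with the NEBNext Ultra kit from total RNA of 6 K562 cultures, per the labels' protocols. Transcripts had been quantified with Salmon 1.5.2 on GRCh37 (hg19), per the submitters' processing notes. For each of 167268 transcripts the deposited files give, per their headers, an estimated count of reads and a TPM value, with the transcript's length and effective length in bases. The second CDAN1 shRNA clone is called c2 after its sample title, while the name of its deposited tables carries another clone number; the title was followed. No source used here states the trimming, the transcript annotation or the strand setting, so overlapping and near-identical genes are uncertain.

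Of the transcripts, 151039 (90.3%) matched GENCODE 29 by identifier and were summed to 33367 genes; the 16229 others held 6.23% to 6.5% of a library's reads and were left out. Coordinates are those of GRCh38 and were used for names and positions only. Summed estimated counts were rounded to whole numbers. edgeR's filterByExpr (smallest group 2, minimum count 10) kept 14075 of 21165 genes above 0. CPM were scaled by TMM, with a prior count of 2 for log2 values.

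Tests used edgeR 4.0.16 (quasi-likelihood, two-sided) in R 4.3.3, and DESeq2 1.42.0 and limma 3.58.1 (voom) as alternatives, with a block, other size factors, no filter, a length offset or 1 library left out as further settings. Knockdown, induction, response and doxycycline contrasts were tried with the clone as block, and contrasts between clones with the doxycycline state. The clone pairs the libraries: deviations of a clone's induced and uninduced library from their state means correlated at r = 0.608 in NT, 0.679 in c1 and 0.741 in c2 across genes. The test code was tried on simulated data. Intervals of read ratios within a pair are 95% intervals for counting error only.

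The members and lists were chosen with earlier results of these data known. Named in each comparison were all members called with or without the block and, for a role with fewer than 2 unblocked calls, the 2 members with the smallest unblocked p.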

Additional observations from a re-analysis of the deposited data

Results flagged for a closer look

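XPOT, the nuclear exporter of tRNA, is given here because 1 of its 4 controls stood apart. Its level in uninduced c1 exceeded that in the nearest other control by 0.844 of the range of the 4 controls, above Dixon's 95% critical value for 4 samples. The gap was 0.065 on the log2 scale, with 388 CPM in that library against 371 CPM for uninduced NT, so it is small in size. The 4 controls of all 37 members were examined, 1 of the 37 met the criterion, and chance flags about 1 in 20 groups.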

How the results depend on the processing

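Counts of called genes depended on the block and the tool where doxycycline states were compared. Knockdown against all controls, with no gene called in the unblocked edgeR fit, gave 6 with the clone as replicate block, 14 by DESeq2, 115 by blocked DESeq2, 16 by blocked voom and 19 with block and doxycycline, and no member in any. The fit with block and doxycycline is the same fit as the blocked response difference, so those 19 genes are not a separate result. Induced against uninduced CDAN1 shRNA clones gave 141 genes with the block, 2 by DESeq2, 69 by blocked DESeq2 and 104 by blocked voom; the blocked fits each called 1 member, SLC38A2. It was also called, among 138 to 141 genes, in blocked fits without 1 NT library. The NT pair does not enter this contrast, and the residual degrees of freedom stayed at 1. Leaving out an NT library thus could not test the call, and these fits are no separate support for it. Blocked fits without a CDAN1 shRNA library left no residual degrees of freedom. The response difference gave 19 genes with the block, 5 by DESeq2, 8 by blocked DESeq2 and 9 by blocked voom, and no member. Doxycycline over all clones gave 18 with the block, 6 by DESeq2, 145 by blocked DESeq2 and 27 by blocked voom, and the last pair called 1 member each.

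Between clones, a length offset lowered the genes called to 1811 for c1 against NT, 1372 for c2 against NT and 1892 for c1 against c2, where 4 members were left. Blocked voom called 15 members in c1 against NT, and blocked DESeq2 and blocked voom 11 each in c1 against c2. Leaving out 1 library gave 1050 to 2893 genes and 3 to 15 members for c1 against NT, 759 to 2683 and 0 to 4 for c2 against NT, and 1224 to 2485 and 3 to 12 for c1 against c2. On the TPM scale, 8 members in place of 5 were higher in induced NT. Over all members and settings, 3229 values were scored as the same, 298 moved, 77 passed and 59 lost the threshold, and 0 called values changed sign. A value called in neither fit was scored as the same if it moved by less than its SE. One called in both was scored as the same whatever its size, as for VLDLR in c1 against c2, at −4.90 and −8.04. The causes were not tested. Genes with under 100 reads a library (NUPR1, VLDLR) are limited by depth.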

Other observations

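IMPACT, whose mouse and yeast relatives are known to restrain the amino acid sensing kinase GCN2 (EIF2AK4), was close to absent from c1. It had 0.198 CPM in induced and 0.0707 CPM in uninduced c1, 14.8 in induced and 14.1 in uninduced c2, and 9.94 in induced and 11.04 in uninduced NT. The c1 values rest on 6 reads in the induced and 2 in the uninduced library, against 265 and 293 reads in induced and uninduced NT. The level was lower in c1 than in NT, at −6.22 ± 0.29 (edgeR adjusted p = 3.35e-05) and lower than in c2, at −6.68 ± 0.29 (adjusted p = 1.03e-05). EIF2AK4 itself had 51.5 CPM in induced and 60.7 in uninduced c1 against 80.6 in induced and 75.3 in uninduced NT, a difference of −0.47 ± 0.10 (edgeR adjusted p = 0.0134). Its activator GCN1 was lower in c1 than in NT, at −0.24 ± 0.05 (adjusted p = 0.0196), and EIF2AK2, the kinase PKR, was higher by 0.51 ± 0.08 (adjusted p = 0.00454). Any link of these genes to the low CHAC1 and ATF3 of c1 was not tested.

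Estimates for single transcripts differed between clones for some members, with no test. SHMT2-223, a coding transcript of 768 bases, was listed at 0 in both c2 libraries, and made up 13.5% of the TPM of SHMT2 in induced and 9.37% in uninduced c1, and 10.7% in induced and 19.6% in uninduced NT. EIF4EBP1-202, a non-coding transcript, was listed at 0 in induced c1 and in both NT libraries, and made up 23.4% of the TPM of its gene in uninduced c1, 11.3% in induced c2 and 20.6% in uninduced c2. One coding transcript, ATF4-202, carried 95.7% to 97.1% of the TPM of ATF4 in the 6 libraries.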
